A study of Mus musculus with 8 samples.

Results

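The calcium signalling genes described here are 9 genes that supply the releasable calcium, its entry and its first sensors in the mouse egg: Itpr1, Atp2a2, Stim1, Orai1, Calm2, Calm3, Camk2g, Trpm7 and Cacna1h. They were chosen by name, and all 9 were found once among the 25574 genes of the FPKM table (fragments per kilobase of transcript, scaled to the mapped reads of a library). The samples were oocytes of 8 weeks old CD1 mice, primed with gonadotropin, released from IBMX arrest and cultured for 180 min. Oocytes that underwent nuclear envelope breakdown (NEBD), the step at which the germinal vesicle dissolves and meiosis resumes, were selected during that culture. Lysates of 200 oocytes, all treated with cycloheximide at 0.1 mg/ml for 10 min, were separated on sucrose gradients, and RNA of the non-polysomal (NP) and the polysomal (P) fractions was sequenced in 4 libraries of each. Both datasets thus came from unmodified CD1 oocytes of one stage, pooled across animals, and differed only in the part of the gradient. Per the study's methods, the NP pool held the ribosomal subunit and monosome fractions, and the topmost fraction of the gradient was left out. The comparison of P with NP asks in which pool each mRNA made up the larger share of the sequenced RNA.

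At fertilisation the sperm triggers repeated calcium rises in the egg. Inositol trisphosphate (IP3) opens its receptor in the endoplasmic reticulum, calcium leaves the store, the SERCA pump returns it, and entry across the plasma membrane refills what is lost to the outside. Calmodulin binds the released calcium and activates CaMKII, the kinase that drives exit from the metaphase arrest, while the same rises trigger cortical granule release. During maturation the store grows and the release channel becomes more sensitive, so that the stage studied here precedes full competence.

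The estimated log2 fold change of P over NP lay between -0.06 and 0.19 for 4 of the genes (Itpr1, Atp2a2, Calm2, Cacna1h) and between -2.37 and -0.80 for the other 5 (Orai1, Calm3, Stim1, Trpm7, Camk2g). None of the 9 was called by limma on log2(FPKM + 1) at an adjusted p below 0.1 over 14292 genes tested, and 0.021% of all genes tested were called. The study's own test, a count model, reported transcripts that differed significantly between NP and P. The share called here therefore holds for the present test only. Voom on reads recovered from the FPKM called none of them either, where 1.57% of all genes tested were called, and Stim1 alone of the 9 had an unadjusted voom p below 0.05 (0.0327), as did 13.3% of all genes tested. With the replicate number as a block, 2 of the 9 had an unadjusted limma p below 0.05 (Orai1 and Calm3), as did 12.1% of all genes tested, and none was called. On log2(FPKM + 1), Orai1 alone had an unadjusted limma p below 0.05, with the higher level in NP, a side on which 9.47% of all genes tested lay, against 0.476% on the P side. These shares depended on the scaling between libraries, at 4.04% and 2.55% with quantile normalization and 2.70% and 7.04% with each library scaled to one median FPKM. For none of the 9 were the 4 NP and the 4 P libraries separated without overlap, where 5.92% of all genes tested were separated with NP higher and 0.357% with P higher. The median log2 fold change of P over NP was -0.39 over all genes tested, and a fold change near 0 therefore lay above the middle of the table. FPKM is a share of each library, and a P to NP ratio of FPKM is not the share of a transcript's molecules on polysomes. In addition, since each library was made from pooled oocytes, fewer oocytes with a transcript and less transcript per oocyte cannot be told apart.

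**Figure D1:**
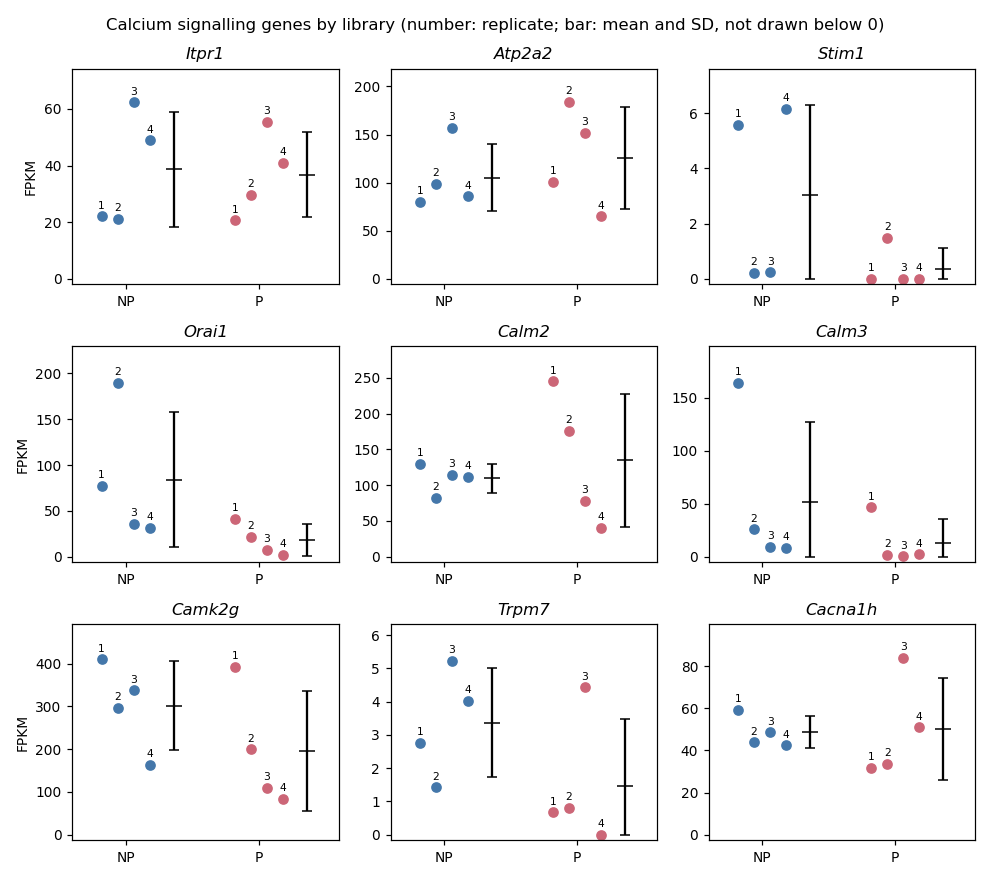
FPKM of the 9 calcium signalling genes in each library, on a linear axis with one scale per gene. Blue points are the 4 NP libraries, red points the 4 P libraries, the number is the replicate, and the black bar is the mean with its SD, not drawn below 0. The NP and P points overlap for every gene, Orai1 only through P1, and Calm3 is high in NP1 and P1 alone.

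Itpr1 encodes the type 1 IP3 receptor, the channel through which the egg store releases calcium, and lies on chromosome 6 at 108213118 to 108551109 on the plus strand (GRCm38, as for all coordinates here). Its FPKM was 22.0, 21.2, 62.4 and 48.9 in NP1 to NP4 and 20.6, 29.8, 55.5 and 41.0 in P1 to P4. Libraries 3 and 4 were the higher ones in both datasets, and the datasets overlapped throughout. The means were 38.6 ± 20.4 in NP and 36.7 ± 15.1 in P (SD, n = 4), a log2 fold change of -0.01 with a standard error of 0.64 (95% interval -1.38 to 1.36). Limma gave an adjusted p of 0.997, and the exact permutation test over the 70 assignments of the libraries gave p = 1. The interval spans more than a doubling in either direction, so equal levels were not shown. Both tests, here and below, take the libraries as independent unless a block is named. The NP and P pools came from 4 gradients, so same-numbered libraries may be pairs. An exact sign-flip test on 4 pairs cannot give a p below 0.125.

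The share of Itpr1 among the 3 IP3 receptor genes depends on Itpr2 and Itpr3 as well as on Itpr1, and cannot be ranked against its level. The tests of family shares were not corrected for the number of families. Itpr1 made up 50.8%, 57.4%, 79.4% and 67.9% of the summed Itpr1, Itpr2 and Itpr3 FPKM in NP1 to NP4, and 78.6%, 93.7%, 90.7% and 87.6% in P1 to P4. The only crossing was between NP3 and P1. The mean share was 63.9% ± 12.5 in NP and 87.6% ± 6.53 in P (SD, n = 4), a difference of 23.8 points (exact permutation test, p = 0.0571, where the smallest possible p is 0.0286). Without NP3, which held the crossing with P1, the difference was 28.9 points, and the exact p of 0.0286 is then no added support. Without any other single library the difference lay between 19.4 and 26.8 points. This is a ratio within each library and does not move with the scaling between libraries.

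Itpr2, the type 2 receptor, was the next most abundant of the family by mean FPKM. Its FPKM was 19.6, 6.39, 14.5 and 23.0 in NP1 to NP4 and 3.60, 1.83, 3.29 and 5.59 in P1 to P4. All NP libraries were above all P libraries. The means were 15.9 ± 7.21 and 3.58 ± 1.55, and the log2 fold change was -1.82 (standard error 0.78). The exact permutation p was 0.0286, the smallest possible, which any separation without overlap gives. Limma's adjusted p was 0.478, and 0.392 with the replicate number as a block. Itpr3 was low in both, at 3.21 ± 4.15 in NP and 1.20 ± 1.18 in P.

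**Figure D2:**
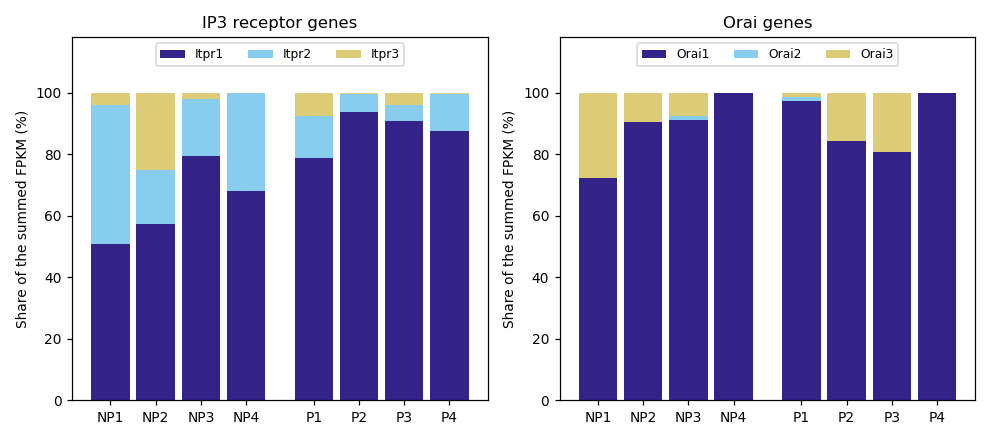
Share in percent of each gene in the summed FPKM of its family, by library, for the IP3 receptor genes (left) and the Orai genes (right), each bar adding up to 100%. Itpr1 took 50.8% to 79.4% of its family in NP and 78.6% to 93.7% in P, and Orai1 72.1% to 100.0% in NP and 80.6% to 100.0% in P.

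Atp2a2 encodes SERCA2, the pump that refills the store (chromosome 5, 122442702 to 122502225, minus strand). Its FPKM was 80.1, 98.7, 157 and 85.8 in NP1 to NP4 and 101, 184, 152 and 64.9 in P1 to P4. The highest and the lowest library were both in P. The means of 105 ± 35.1 and 125 ± 53.0 gave a log2 fold change of 0.19 ± 0.56 (limma adjusted p = 0.889, exact permutation p = 0.714). Atp2a1 and Atp2a3, the other SERCA genes, were listed at 0 in all 8 libraries, so that Atp2a2 was the whole of the family's FPKM in NP and in P. Atp2a2 also had the largest estimate in favour of P among the 9 genes.

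Stim1 and Orai1 make up store-operated entry: the STIM1 protein senses the emptied store, and ORAI1 is the plasma membrane channel it opens. Orai1 lies on chromosome 5 at 123015074 to 123030450 on the plus strand. Its FPKM was 77.2, 190.0, 36.1 and 31.9 in NP1 to NP4 and 41.4, 21.8, 7.86 and 2.28 in P1 to P4. P1 alone of the P libraries reached into the NP range, and NP2 held 56.7% of the NP sum. The mean was 4.57 times higher in NP (83.8 ± 73.7 against 18.3 ± 17.4, SD, n = 4), and 2.64 times without NP2 and 7.87 times without P1. The log2 fold change was -2.33 with a standard error of 0.87 and a 95% interval of -4.20 to -0.47, which lies wholly below 0. The unadjusted limma p was 0.0176, the adjusted p 0.420, and the exact permutation p 0.0857. The log2 fold change was -1.82 without NP2 (unadjusted limma p = 0.0750) and -1.68 without P4 (0.0519), and without P1 the exact permutation p was 0.0286. By voom the unadjusted p was 0.0519, and with each library scaled to one median FPKM the log2 fold change was -1.11 (limma unadjusted p = 0.184). With the replicate number as a block the limma p was 0.00356 (adjusted p = 0.286), and with quantile normalization it was 0.0373 (adjusted p = 0.731).

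The Orai1 values rested on 554 to 602 reads in each NP library and on 445, 160, 80 and 14 reads in P1 to P4, as recovered from the steps of the FPKM values. Orai1 was also the main member of its family, with 88.4% ± 11.7 of the summed Orai1, Orai2 and Orai3 FPKM in NP and 90.5% ± 9.55 in P (exact permutation p = 0.857). Orai3 had a mean of 13.3 ± 14.2 in NP and 1.64 ± 1.81 in P, and Orai2 was at most 0.553. The family's sum was thus lower in P along with Orai1, at 97.2 ± 82.5 in NP and 20.1 ± 17.9 in P (exact permutation p = 0.0857).

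Stim1 was low, and near the limit of detection outside NP1, NP4 and P2 (chromosome 7, 102267824 to 102436848, plus strand). Its FPKM was 5.57, 0.214, 0.229 and 6.15 in NP1 to NP4 and 0, 1.47, 0 and 0 in P1 to P4. NP1 and NP4 were the high libraries, while NP2 and NP3 lay among the P values. These values stand for 64, 1, 6 and 168 reads in NP and for 17 reads in P2, and a count of 0 allows up to 3 reads, or an FPKM of 0.178 in P1, 0.188 in P3 and 0.311 in P4 (counting error only). The log2 fold change was -1.21 ± 0.70 (limma adjusted p = 0.563, exact permutation p = 0.171), and it was -2.80 with a pseudocount of 0.1 and -3.73 by voom (adjusted p = 0.484 and 0.332).

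Stim2, the other sensor of this kind, was the more abundant by far. Its FPKM was 128, 52.4, 63.1 and 11.1 in NP1 to NP4 and 10.8, 54.4, 15.7 and 19.3 in P1 to P4. NP1 was the highest library and the datasets overlapped, with means of 63.8 ± 48.6 and 25.0 ± 19.9 (log2 fold change -1.15 ± 0.80, limma adjusted p = 0.635). Stim1 made up 0.362% to 35.7% of the Stim1 and Stim2 sum in NP and at most 2.64% in P.

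Trpm7 and Cacna1h encode plasma membrane channels that carry calcium into the mouse egg, a TRP channel with its own kinase domain and a T-type voltage-gated channel. Trpm7 (chromosome 2, 126791565 to 126876230, minus strand) had an FPKM of 2.77, 1.43, 5.23 and 4.03 in NP1 to NP4 and of 0.677, 0.799, 4.43 and 0 in P1 to P4. Only P3 was as high as the NP libraries, and the 0 in P4 allows up to 0.0989. The means were 3.36 ± 1.64 and 1.48 ± 2.002, with a log2 fold change of -1.03 ± 0.78 (limma adjusted p = 0.644, exact permutation p = 0.143). It was -2.06 with a pseudocount of 0.1 and -2.85 by voom (adjusted p = 0.586 and 0.391).

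Cacna1h (chromosome 17, 25374285 to 25433783, minus strand) was the better expressed of these channels. Its FPKM was 59.3, 43.9, 48.7 and 42.5 in NP1 to NP4 and 31.7, 33.5, 83.9 and 50.9 in P1 to P4. The P libraries lay on both sides of the narrow NP range. The means of 48.6 ± 7.60 and 50.0 ± 24.2 gave a log2 fold change of -0.06 ± 0.58 (limma adjusted p = 0.968, exact permutation p = 0.914). Cacna1h took 88.4% ± 2.94 of the T-type channel FPKM (Cacna1g, Cacna1h and Cacna1i) in NP and 93.2% ± 7.97 in P, a difference of 4.85 points (exact permutation p = 0.314). Without P2, the only P library whose share was not above the NP range, that difference was 8.77 points. The exact permutation p of 0.0286 is then the smallest possible and no added support. Without any other single library the difference lay between 3.07 and 5.75 points (exact permutation p between 0.286 and 0.571). Cacna1i was the next member of the family with 5.78 ± 3.66 in NP and 2.96 ± 2.83 in P.

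Calm2 and Calm3, at separate loci, both encode calmodulin, the calcium sensor that activates CaMKII. The annotated coding sequences of both are 450 bases long, stop codon included, and translate into an identical protein, while 78 bases differ between them (82.7% identity). No stretch longer than 17 coding bases is shared by the pair without a mismatch, which bears on whether their reads could be told apart. The first 150 coding bases of each, from the GENCODE annotation of GRCm38 and written 5' to 3', are shown because Calm2 and Calm3 had different profiles below, and capitals mark the 23 positions at which they differ.
Calm2: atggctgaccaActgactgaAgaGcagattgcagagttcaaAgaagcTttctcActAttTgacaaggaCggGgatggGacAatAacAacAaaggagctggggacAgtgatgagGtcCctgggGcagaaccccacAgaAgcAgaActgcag
Calm3: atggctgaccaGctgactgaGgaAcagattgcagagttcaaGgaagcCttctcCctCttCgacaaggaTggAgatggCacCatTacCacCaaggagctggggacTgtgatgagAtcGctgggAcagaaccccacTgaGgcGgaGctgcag
Of all 78 such positions in the coding sequence, 94.9% were the third base of a codon. Among other annotated transcripts, 4 processed pseudogenes matched the Calm2 or Calm3 coding sequence at 90% identity or more over at least 200 bases, 3 of them closest to Calm2 and 1 to Calm3, and none had a row of its own in the table. How reads shared with these copies were assigned was not tested.

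Calm2 (chromosome 17, 87433412 to 87446935, minus strand) had an FPKM of 130, 82.4, 114 and 111 in NP1 to NP4 and of 245, 176, 78.1 and 40.2 in P1 to P4. P1 and P2 were above every NP library and P3 and P4 below every one. The means were 110 ± 19.9 and 135 ± 93.3, and the log2 fold change was 0.00 ± 0.63 (limma adjusted p = 1.0, exact permutation p = 1). The CV was 18.2% in NP and 69.1% in P.

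Calm3 (chromosome 7, 16915379 to 16924114, minus strand) had an FPKM of 164, 26.0, 9.58 and 8.48 in NP1 to NP4 and of 46.6, 1.67, 0.557 and 2.16 in P1 to P4. The replicate 1 libraries were the highest of both datasets, with 78.8% of the NP sum in NP1 and 91.4% of the P sum in P1. The remaining P libraries rested on 6 to 14 reads. The means were 52.1 ± 75.2 and 12.8 ± 22.6, with a log2 fold change of -2.37 ± 1.17 (limma unadjusted p = 0.0627, adjusted p = 0.522, exact permutation p = 0.171). With the replicate number as a block the limma p was 0.00757 and the adjusted p 0.318. Without P1 the log2 fold change was -3.45, and without NP1 it was -1.48 with exact permutation p = 0.343. P1 was the only P library in the NP range, so the exact permutation p of 0.0286 without it is no added support.

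Camk2g encodes the gamma isoform of CaMKII, the form required for egg activation in the mouse (chromosome 14, 20734875 to 20794088, minus strand). Its FPKM was 410, 297, 338 and 163 in NP1 to NP4 and 393, 200, 110 and 83.8 in P1 to P4. P1 was as high as the NP libraries and P3 and P4 lay below all of them. The means of 302 ± 104 and 196 ± 140 gave a log2 fold change of -0.80 ± 0.61, with a 95% interval of -2.10 to 0.50 (limma adjusted p = 0.644, exact permutation p = 0.229). Camk2g was in effect the only CaMKII gene: Camk2a and Camk2b were listed at 0 throughout, and Camk2d was above 0 only in NP3 (3.34) and P2 (0.0979). The Camk2g share was accordingly at least 99.0% in every library.

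**Figure D3:**
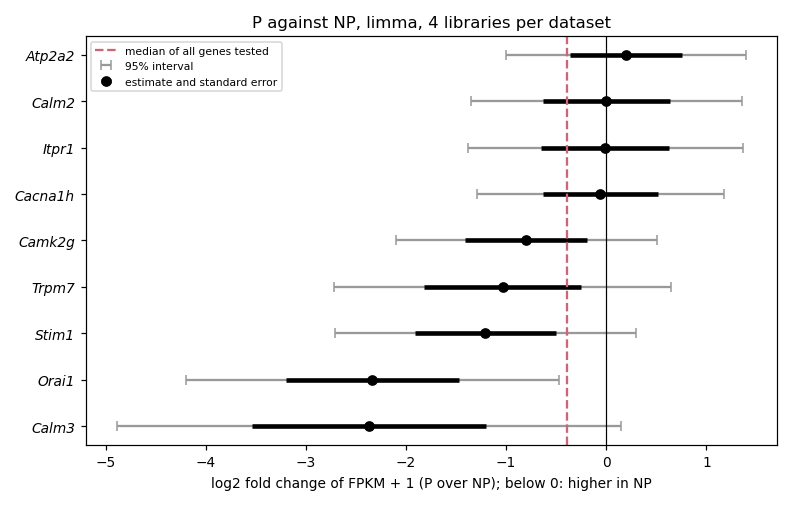
Log2 fold change of P over NP on the log2(FPKM + 1) scale for the 9 genes, sorted, with the limma standard error (thick bar) and 95% interval (thin bar), 4 libraries per dataset. The dashed line is the median of all genes tested (-0.39). Only the Orai1 interval lies wholly below 0, and the intervals of Atp2a2, Calm2, Itpr1 and Cacna1h are centred near 0.

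By level, Camk2g was the highest of the 9 in both datasets and exceeded Calm2, the next, in 8 of 8 libraries. In NP the order of mean FPKM was Camk2g, Calm2, Atp2a2, Orai1, Calm3, Cacna1h, Itpr1, Trpm7 and Stim1. In this order only Camk2g and Calm2, and Itpr1 and Trpm7, were neighbours whose 4 values did not overlap. In P, Cacna1h and Itpr1 stood ahead of Orai1 and Calm3, and every pair of neighbours overlapped. Trpm7 and Stim1 were last in both.

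Relative to the median of all genes tested, Itpr1, Atp2a2, Calm2 and Cacna1h lay above it and Orai1, Calm3, Stim1 and Trpm7 below it, in the fit described and in all 15 alternatives to it. The position of Camk2g depended on the setting. The median of the 9 log2 fold changes was -0.80, and 5 of 9 lay below the median of all genes. With a scaling that gives every library one median FPKM, the median of all genes moved to 0.21, and Itpr1, Cacna1h and Camk2g then had fold changes above 0.

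The genes whose pattern over the 8 libraries was most like that of Itpr1, taken from the 6415 genes that averaged an FPKM over 10 in either dataset, were Prickle1 (Pearson r 0.942), Mfap3 (0.914) and Abl2 (0.909). For Camk2g they were Rab2a (0.982), Plek (0.974) and Mta1 (0.965). These values are a description over 8 libraries that also share depth and amplification.

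The rest of the calcium pathway was followed in 10 lists with 123 genes tested. None was called at an adjusted p below 0.1 by limma on log2(FPKM + 1). Voom called 4 of them, against 1.57% of all genes tested, all lower in P: Rab3a, a gene described further on, and the low genes Cacna1e, Cacnb4 and Plch1, which were listed at 0 in every P library and had means of 1.10 ± 1.45, 7.19 ± 13.6 and 0.723 ± 0.769 in NP. Unadjusted limma p was below 0.05 with NP higher for 8 of the 123 (6.50%, against 9.47% of all genes tested) and with P higher for 1 (against 0.476%). With quantile normalization these counts were 3 and 7, against 4.04% and 2.55% of all genes tested. With median scaling they were 1 and 13, against 2.7% and 7.04%. The median log2 fold change was -0.40, against -0.39 for all genes tested.

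Of the 9 store release channel genes tested, 2 had an unadjusted limma p below 0.05, Itpr2 and Ryr3, both with NP higher (beside 9.47% of all genes tested). Ryr3, a ryanodine receptor, had 5.73 ± 2.39 in NP and 0.750 ± 1.06 in P without overlap (limma adjusted p = 0.433). Itprip, which encodes a protein that binds the IP3 receptor, had 54.7 ± 19.96 and 50.5 ± 27.4. Of 7 pumps and exchangers tested, 2 lay on the NP side at that threshold, beside the same 9.47%. One was Atp2b3, a plasma membrane pump that extrudes calcium, with 5.91 ± 5.65 in NP and 0.254 ± 0.255 in P, without overlap (limma adjusted p = 0.420). Atp2c2, a secretory pathway pump, had 139 ± 59.7 and 169 ± 196, the latter with 452 in P3.

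Among 9 store-operated entry genes tested, only Orai1 had an unadjusted limma p below 0.05 (NP higher, beside 9.47% of all genes tested). The list's median log2 fold change was -0.90. Saraf, an inhibitor of that entry (listed under its older symbol Tmem66), had the highest level of the list with 245 ± 107 in NP and 311 ± 144 in P. None of the 22 plasma membrane channel genes had an unadjusted limma p below 0.05. Trpc2 was the highest of them after Cacna1h, with 26.2 ± 15.03 and 14.9 ± 10.1.

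The phosphoinositide enzymes make IP3 and its precursor, and 2 of 14 tested had an unadjusted limma p below 0.05, with NP higher and no overlap. Of all genes tested, 9.47% had such a p and 5.92% had no overlap, each with NP higher. Pip5k1a, a kinase that makes the lipid precursor, had an FPKM of 62.7, 42.3, 89.8 and 73.6 in NP1 to NP4 and of 20.6, 20.8, 25.7 and 10.4 in P1 to P4. Every NP library was above every P library (log2 fold change -1.76 ± 0.60, limma adjusted p = 0.416). Plcg1, a phospholipase C, had 27.0 ± 14.2 and 7.66 ± 7.02 (limma adjusted p = 0.456), while Plcg2 overlapped widely at 44.7 ± 31.6 and 45.5 ± 50.9. Plcz1, the sperm phospholipase that starts the calcium rises, was listed at 0 in all 8 libraries.

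The 8 calmodulin and EF-hand sensors tested, 18 genes of calmodulin kinases, calcineurin and PKC, 13 luminal binders and 11 mitochondrial uptake genes had none with an unadjusted limma p below 0.05. Rcan3, a calcineurin regulator, was the highest in its list after Camk2g, with 103 ± 86.9 in NP and 42.4 ± 24.4 in P. In the endoplasmic reticulum lumen, P4hb, a disulphide isomerase, had 394 ± 115 and 372 ± 277, and Calr, the calcium-binding chaperone calreticulin, had 171 ± 27.1 and 171 ± 130. The mitochondrial channel genes Mcub (listed as Ccdc109b) and Vdac3 had 140 ± 37.7 and 92.0 ± 50.0 in NP against 185 ± 126 and 104 ± 72.0 in P.

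The 12 genes of activation targets and cortical granule exocytosis held the extremes in both directions. Astl encodes ovastacin, the cortical granule protease that cleaves the zona pellucida after fertilisation, and had an FPKM of 357, 225, 216 and 296 in NP1 to NP4 and of 1477, 438, 508 and 3328 in P1 to P4. Every P library was above every NP library, P4 the farthest (log2 fold change 1.93 ± 0.66, limma adjusted p = 0.416). Any separation without overlap gives the smallest possible exact permutation p, 0.0286. Since that separation was part of a rule for naming genes, this p adds nothing to it. The study also reported Astl as enriched in P in its own test of the sequencing. Its qRT-PCR on additional replicates gave the same direction, with a weaker enrichment. Rab3a, a small GTPase of regulated exocytosis, had 61.6, 103, 19.3 and 56.8 in NP1 to NP4 and 7.17, 3.78, 1.11 and 0 in P1 to P4. Here every NP library was the higher (log2 fold change -4.12 ± 0.86, limma adjusted p = 0.344), which fixes the exact permutation p at 0.0286 in the same way. Rab27a, another GTPase of granule release, had 68.5 ± 45.5 and 109 ± 146 with overlap.

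**Figure D4:**
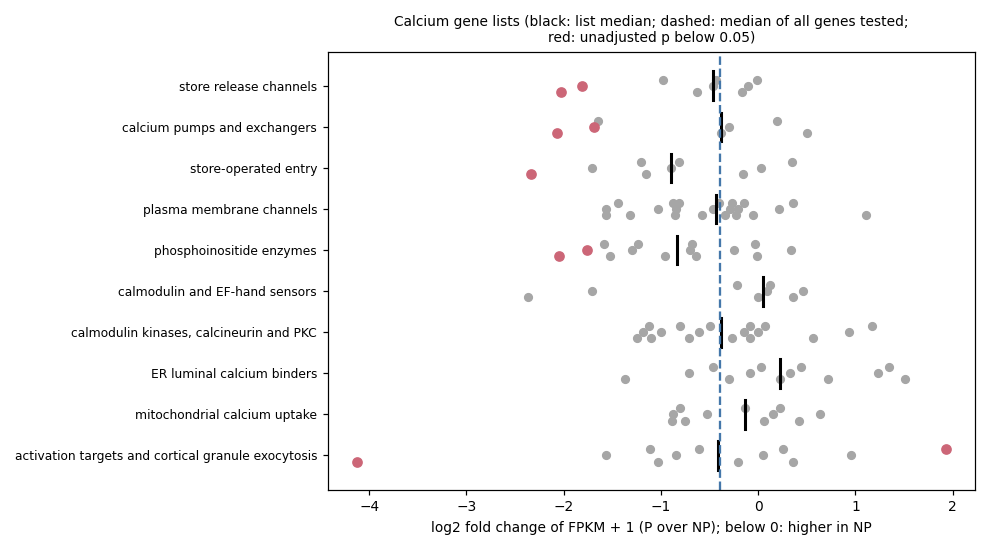
Log2 fold change of P over NP (log2(FPKM + 1) scale) for each gene tested in the 10 calcium lists, one row per list. Red points have an unadjusted limma p below 0.05, the black bar is the list's median, and the dashed line is the median of all genes tested (-0.39). Rab3a is at -4.12 and Astl at 1.93, the ends of the plot.

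The libraries differed in depth and in the number of genes detected. The FPKM steps corresponded to 1299377 to 7594637 reads per NP library and 2677946 to 4699328 per P library, and 11703 to 13753 genes were above 0 in NP against 9139 to 11339 in P. All 12 oocyte markers were tested, with a summed FPKM of 7092 to 14943 in NP and 8795 to 32577 in P. Of 15 granulosa and cumulus markers, 8 passed the filter on mean FPKM and were tested. In that list 5 markers were at 0 in all 8 libraries. The list's summed FPKM was 15.3 to 141 in NP and 21.2 to 64.0 in P, so some of its genes were detected in every library. Of 9 blood and stromal markers in the table, 3 were tested and 5 were at 0 in all libraries. Their sum was 12.8 to 63.5 in NP and 6.36 to 77.7 in P. These ranges overlap, and their part in the values above was not tested.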

How the data were processed

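RNA of NP and P fractions of NEBD-stage oocytes, 4 libraries each, had been rRNA-depleted, amplified as whole-transcriptome cDNA and tagmented. Per the submitters' processing notes, the authors used Trim Galore 0.4.1 for trimming and HISAT2 2.0.5 for mapping (GRCm38), and they deposited FPKM per gene, computed in SeqMonk. The amplification carries no molecular identifiers, so reads are not independent molecules. The study's own test was a count model, and since FPKM are not counts, limma 3.58.1 in R 4.3.3 was fitted to log2(FPKM + 1), with no covariate, over all genes with a mean FPKM above 0.1 in a dataset (P against NP, 2-sided, Benjamini-Hochberg, threshold 0.1). The fold changes are on that scale and understate changes of low genes. Single genes and family shares were tested by exact permutation over libraries. The limma fit was checked on simulated independent normal values with known shifts. These hold no pairing of libraries, so the error rates of the test in the present data were not checked.

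Reads were recovered for 15584 of 15585 genes above 0 by dividing FPKM by the step of 1 read in each library (within 0.05 reads), with the annotated length for 6844 genes and, for 8740, a length searched between 100 and 30000 bases until the values were whole. Voom on these reads was an alternative. Per the study's methods, NP and P pools came from 4 independent gradients, and the labels number both 1 to 4, so that same-numbered libraries were taken as pairs in the replicate block. Their deviations correlated at 0.0518 to 0.251 (other pairs -0.135 to 0.136), and 7 of 8 libraries correlated best with their own number.

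Members and lists were chosen with earlier results of these data known. Genes named were the 9 and their paralogs, the 2 highest of each list, those with a mean FPKM above 1, unadjusted p below 0.05 and no overlap, and the 3 most alike to Itpr1 and to Camk2g, and 1 item is not reported here. Plcz1 and the genes voom called were added after their values were seen. Alternatives were pseudocount, filter, scaling, replicate block, voom and each library left out. Coding sequences were the longest reading frame common to transcripts of Calm2 and Calm3 in GENCODE.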

Additional observations from a re-analysis of the deposited data

Results flagged for a closer look

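Among 31 sets of 4 values examined (the FPKM of the 9 genes and the family shares in each dataset), 8 held a library far from the other 3 by Dixon's test. Chance flags about 1 of 20 sets of continuous values, but for 4 of the 8 the other 3 values were tied at 0 or 100.0%, where any single different value is flagged and that rate does not hold (Stim1 in P2 and its share there, and the Camk2g share in NP3 and P2). Calm3 stood apart in NP1, with an FPKM of 164, and in P1, with an FPKM of 46.6. Stim1 stood apart in P2, the only P library above 0, with an FPKM of 1.47 and 2.64% of the Stim1 and Stim2 sum, and its share was 35.7% in NP4. The Camk2g share of the CaMKII genes was 99.0% in NP3, where Camk2d was detected, against 100.0% in the other NP libraries, and P2, at just under 100.0%, was the only P library with Camk2d. The Trpm7 share of the Trpm6 and Trpm7 sum was 75.1% in NP2, on low FPKM of both genes. The cause of these values was not tested.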

How the results depend on the processing

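No alternative called any of the 9 genes, and their adjusted p stayed between 0.286 and 1.0. Of all genes, 5 were called with a pseudocount of 0.1, 5 with a mean FPKM above 1, 1 with the replicate block, 0 without a filter, with quantile normalization or with median scaling, 224 with voom on the recovered reads and 0 to 5 without one library (5 without P1). Members with an unadjusted limma p below 0.05 numbered 2 with the pseudocount of 0.1 (Orai1 and Calm3, beside 11.4% of all genes), 2 with median scaling (Atp2a2 and Calm2, higher in P, beside 9.74%), 2 with the replicate block (beside 12.1%) and 0 to 2 without one library (0 without NP2 or P4, beside 7.76% and 9.23%, and 2 without NP4 or P1, beside 11.3% and 10.9%). With median scaling 2 members did not overlap (beside 7.13% of all genes), and 0 to 2 did not without one library (Orai1 and Calm3 without P1, beside 12.1%). In the 10 lists voom called 4 genes, beside 1.57% of all genes. List genes with unadjusted p below 0.05 and NP higher were 3 with quantile normalization (beside 4.04% of all genes) and 1 with median scaling (2.7%). They were 15 with voom (12.7%) and 5 to 10 without one library (7.51% to 10.9%). With P higher they were, in the same order, 7 (2.55%), 13 (7.04%), 2 (0.581%) and 1 to 4 (0.255% to 1.14%).

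Some fold changes turned sign. Itpr1 had a log2 fold change of 0.26 with quantile normalization, 1.29 with median scaling and -0.24 to 0.27 without one library, and its percentile rank was 2.42 points higher in P. Cacna1h had 0.20, 1.26 and -0.34 to 0.12, and 1.12 points. Calm2 had -0.0016 with the pseudocount of 0.1 and -0.39 to 0.47 without one library, Atp2a2 had -0.025 to 0.47 without one library, and Camk2g had 0.53 with median scaling. Without one library the difference in family share ranged from -0.012 to 0.314 points for Camk2g, from -3.32 to 5.98 for Orai1, from 19.4 to 28.9 for Itpr1 and from 3.07 to 8.77 for Cacna1h. The cause was not tested.

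The replicate block changed no call of a member. Paired by number (replicate block), Orai1, Calm3, Camk2g and Trpm7 were lower in P in 4 of 4 pairs (exact sign-flip p = 0.125, the smallest possible), and the Itpr1 share difference of 23.8 points had p = 0.125. In P, Stim1 rested on at most 17 reads, Calm3 on 6 to 14 outside P1, and Trpm7 had 0 in P4.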
